A study of Mus musculus with 1920 samples.

Results

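Microglia of the spinal cord were compared with microglia of the corpus callosum, the main fibre tract between the cerebral hemispheres, in untreated CD1 mice aged 16 weeks. No genotype or drug is labelled for either group, and per the design text the same animals provided the untreated regions. A cell was a sorted well with at least 20000 gene counts, at least 500 genes, a mitochondrial share of gene counts under 25% and a spike-in share of all counts under 50%. These rules left 343 cells, 170 of 190 spinal cord wells and 173 of 190 corpus callosum wells, out of 1644 kept cells in the whole series. Each region has 4 replicates by its labels, and adding up its kept cells gave 4 sums against 4. The labels do not tie a replicate number to an animal, so the p-values measure the spread between these sums. Sorting used antibodies to CD11b, CD45, Ly6C, Ly6G and CD206 with gates not given in the sources used here, and the protocol describes the handling of brains only. Both regions lay on 1 plate, corpus callosum in columns 1 to 12 and spinal cord in columns 13 to 24, so region and side of the plate cannot be told apart.

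Microglia are macrophages that live in the brain and cord, and clearing myelin debris loads them with cholesterol, which they cannot degrade. Cells make cholesterol through a chain of enzymes controlled by the factor SREBP2, or take it up from lipoproteins. They export it through the transporters ABCA1 and ABCG1 onto apolipoprotein E, and the mitochondrial enzyme CYP27A1 converts it to an oxysterol. The corpus callosum is a white matter tract and the cord holds both grey and white matter. Mbp, a myelin gene, and Apoe, the lipid carrier gene, are described first.

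The sorted cells carried the defining transcripts of microglia in both regions. P2ry12, a purinergic receptor gene typical of microglia, was read in 98.8% (spinal cord) and 99.5% (corpus callosum) of cells after each was thinned to 20000 reads, and Tmem119, a membrane protein gene, in 98.3% and 97.8%. Summed counts ran from 7916457 to 13575707 per replicate. Cells of the 2 regions had a median of 2758 ± 157 (spinal cord) and 2925 ± 59.1 (corpus callosum) genes (SD, n = 4, exact permutation p = 0.114, two-sided), and a mitochondrial share of 1.05% ± 0.07 and 1.18% ± 0.06 (exact p = 0.0857). None of 7 quality measures passed adjustment over the measures, where the lowest adjusted p was 0.35. The smallest p that 4 against 4 allows is 0.0286. Xist, transcribed from the inactive X chromosome of female cells, was read in all 8 sums. The 4 negative wells of the plate held 466 to 748 gene counts each, with no read of Mbp or Apoe but 2 or 3 reads of P2ry12, so a well with almost no counts can still show a few reads of an abundant microglia gene.

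Among the spinal cord cells of replicate 1, 2 stood apart. The first held 11279 of the reads of Ccl3, a chemokine gene of activated macrophages, which was 99.9% of that replicate's Ccl3 reads. The same cell held 98.1% of the reads of the lipase gene Lpl and 1 read of P2ry12, 2 of Tmem119 and 4 of Cx3cr1, all microglia genes, beside 10052 of the microglia-enriched Cst3. The other had a mitochondrial share of 17.6%, microglia transcripts (588 reads of P2ry12) and most of the replicate's reads of oligodendrocyte and astrocyte genes: 91.0% for Mbp, 99.8% for Mobp, 96.6% for Aldoc and 96.3% for Sparcl1. It also held 92.7% of the Apoe reads of that replicate. Mbp, Apoe and the medians of the lists that hold these genes are given with and without both cells, an alternative added after seeing the data.

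No gene passed the test between the regions. Counts were scaled by the TMM method and are given as CPM, a gene's counts relative to the scaled total of its sum. edgeR's quasi-likelihood test on the sums called 0 of 22907 genes (0.0%) at an adjusted p under 0.05, the lowest adjusted p being 0.548. At an unadjusted p under 0.05 there were 1504 genes, 653 higher in spinal cord (2.85% of those tested) and 851 lower (3.72%). DESeq2 called 314 genes on the same sums, 172 higher and 142 lower, with 957 adjusted p-values not given. Genes whose 4 spinal cord sums all lay above the 4 corpus callosum sums made up 1.26% (289 genes), and those below 1.52% (348). The share of cells with a read was tested in 9074 genes by an exact permutation test, and 0 passed adjustment, while 137 (1.51%) lay at the smallest possible p with a higher share in spinal cord and 170 (1.87%) with a lower one. The genes below are therefore described by their values, and none is a called difference by edgeR. DESeq2 called 17 of the genes taken by the naming rule below, among them Mbp and Cyp27a1, where it called 314 of all 22907. Those genes were taken for a small p on the same sums, so their count is no independent support. DESeq2 also called the list members Ifit2 and Neu4. A smaller number of expressing cells and less RNA per cell cannot be told apart in the sums, which is why the share of cells is given beside them.

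Mbp (ENSMUSG00000041607, chromosome 18, 82475146 to 82585637, GRCm38), which encodes myelin basic protein of oligodendrocytes, was higher in all 4 spinal cord sums. Spinal cord replicates stood at 637, 1221, 453 and 404 CPM, and corpus callosum replicates at 119, 41.7, 75.5 and 49.0 CPM. The ranges did not overlap, and the lowest spinal cord sum was over 3 times the highest callosal one. The log2 fold change was 3.25 ± 0.94 (SE), with an unadjusted p of 0.0019 and an adjusted p of 0.735 by edgeR's quasi-likelihood test, while DESeq2 gave an adjusted p of 0.0314. The share of cells with an Mbp read pointed the other way by a small margin: it was 16.3%, 11.1%, 12.2% and 12.2% in spinal cord and 17.8%, 11.9%, 15.2% and 12.5% in corpus callosum, or 12.9% ± 2.28 against 14.3% ± 2.70 (SD, n = 4, exact permutation p = 0.429). Without thinning the shares were 26.4% and 26.7%, and after thinning to 50000 reads 13.6% ± 3.64 and 20.3% ± 2.64 (SD). At none of these depths was the mean share higher in the cord, and the sums differed through a few cells with very many reads.

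The single cells show where the Mbp reads lay. A level of 1000 CPM or more was reached by 7 of 170 spinal cord cells, at least 1 in every replicate, and by 1 of 173 corpus callosum cells. The single highest cell held 91.0%, 61.0%, 94.4% and 86.6% of the Mbp reads of the 4 spinal cord replicates, and 56.8%, 51.0%, 23.4% and 31.1% of those of the callosal ones. At 100 CPM or more the counts of cells were 17 and 20. All 7 high spinal cord cells also carried microglia transcripts, with P2ry12 from 1667 to 8082 CPM. Of these cells 5 had reads of Mobp and 1 of Mog, other myelin genes. With the highest cell of each gene left out of each replicate sum, added after seeing the data, the log2 fold change of Mbp was 1.87 (unadjusted p = 0.119 by edgeR), and without the 2 cells that stood apart it was 2.91.

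**Figure D1:**
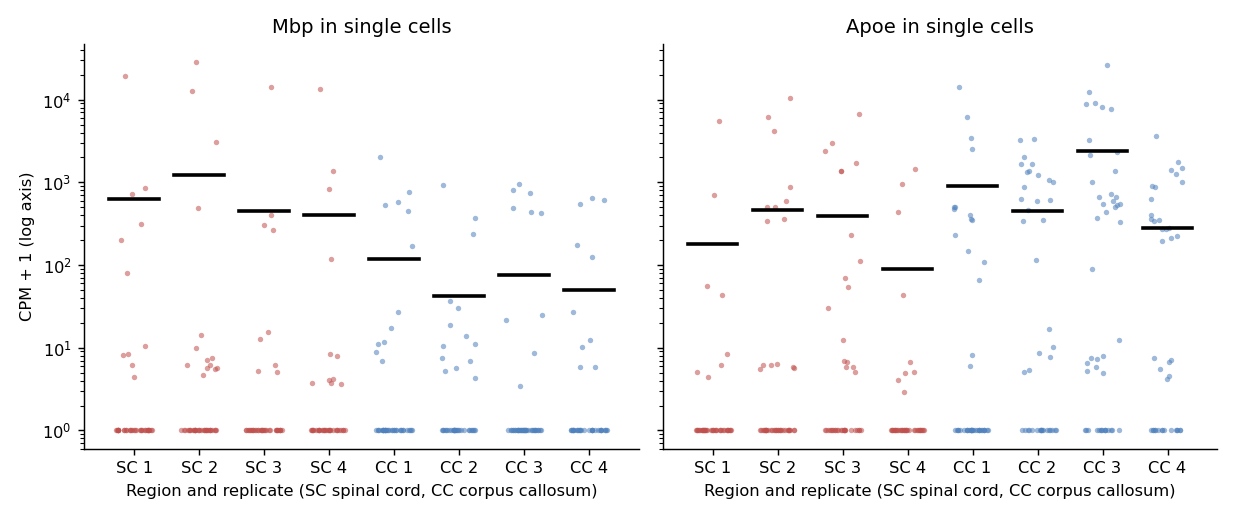
Mbp (left) and Apoe (right) in single kept cells, as CPM + 1 on a log axis, for 4 spinal cord (SC, red) and 4 corpus callosum (CC, blue) replicates. Points are cells and black bars the scaled CPM + 1 of the replicate sum; 1 to 3 red points per replicate lie above 1000 CPM of Mbp, where most cells of both regions lie at 0 reads, and 96 of 173 blue cells have a read of Apoe.

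Apoe (ENSMUSG00000002985, chromosome 7, 19696109 to 19699188), the gene of the main lipid carrier of the brain, was read in fewer spinal cord cells. After thinning, 6.98%, 20.0%, 29.3% and 7.32% of spinal cord cells had a read, against 33.3%, 45.2%, 52.2% and 47.5% of corpus callosum cells. The highest spinal cord replicate stayed below the lowest callosal one. The means were 15.9% ± 10.8 and 44.6% ± 8.02 (SD, n = 4), at the smallest exact p of 0.0286, which was 0.844 after adjustment over all 9074 genes. Unthinned shares were 28.8% and 55.6%, and 22 of 170 against 72 of 173 cells reached 100 CPM. Without thinning the replicates overlapped, the highest spinal cord share being 41.5% and the lowest callosal one 35.6%. The summed levels were 178, 459, 391 and 87.9 CPM in spinal cord and 894, 451, 2401 and 282 CPM in corpus callosum. These overlapped, and the log2 fold change of -1.85 ± 1.20 (SE) had an unadjusted p of 0.141 (edgeR adjusted p = 1). Callosal replicate 3 was the highest sum, and without it the log2 fold change was -0.96. In spinal cord replicate 1 a single cell, 1 of the 2 that stood apart, held 92.7% of the Apoe reads, and without both cells the log2 fold change was -2.08 (unadjusted p = 0.128 by edgeR). Mbp thus differed between the regions in the level of a few cells, and Apoe in the number of cells with a read. The level of Apoe in cells with a read was mostly lower in the cord as well. Its median in such cells, unthinned, was 24.9, 362, 69.4 and 5.75 CPM in the spinal cord replicates. In the callosal replicates it was 381, 623, 552 and 336 CPM, and the ranges overlapped.

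**Figure D2:**
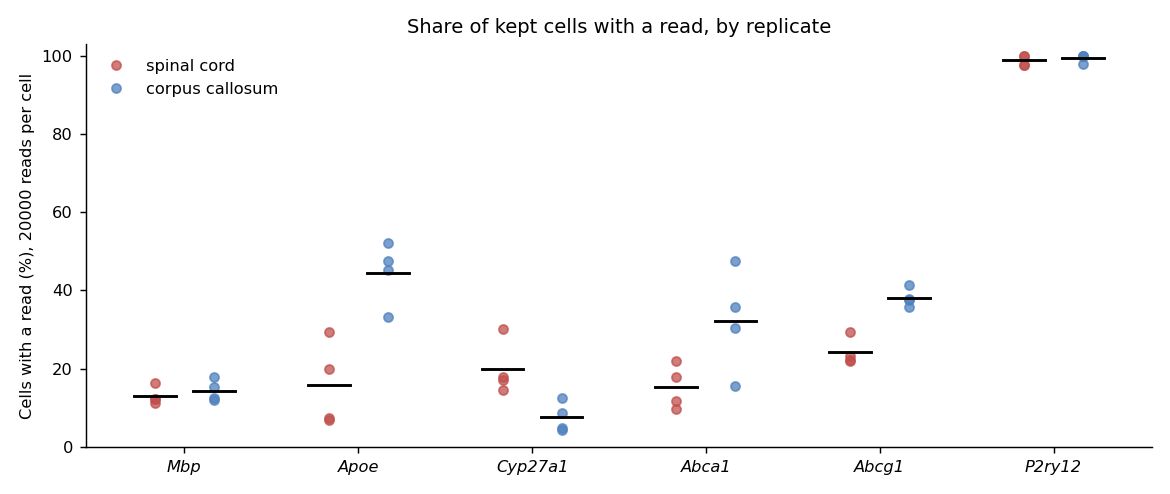
Percent of kept cells with a read after thinning to 20000 reads, for 6 genes. Points are the 4 spinal cord (red) and 4 corpus callosum (blue) replicates and black bars their means; the points of Mbp overlap, those of Apoe, Cyp27a1 and Abcg1 do not, and P2ry12 lies near 100% in both regions.

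The 2 cholesterol exporters were lower in all 4 spinal cord sums. Abcg1 (ENSMUSG00000024030, chromosome 17, 31057698 to 31115777) stood at 142, 99.9, 123 and 60.4 CPM in spinal cord and 277, 222, 251 and 156 CPM in corpus callosum. Its log2 fold change was -1.09 ± 0.35 (SE, unadjusted p = 0.00389, edgeR adjusted p = 0.735), and its share of cells was 24.2% ± 3.44 against 38.1% ± 2.34 (SD, n = 4, exact permutation p = 0.0286, adjusted 0.844). Abca1, named after its values were seen, stood at 126, 92.6, 48.9 and 141 CPM against 159, 240, 217 and 278 CPM, a log2 fold change of -1.13 ± 0.38 (SE, unadjusted p = 0.0057, edgeR adjusted p = 0.735). Its shares of 15.3% and 32.3% overlapped between replicates (exact permutation p = 0.0857, n = 4). For both exporters every spinal cord sum was below every callosal sum.

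Cyp27a1 (ENSMUSG00000026170, chromosome 1, 74713574 to 74737892), the sterol hydroxylase of mitochondria, had the smallest unadjusted p of all genes. Its sums were 146, 105, 89.9 and 105 CPM in spinal cord and 6.66, 15.3, 22.3 and 31.9 CPM in corpus callosum. The lowest spinal cord value was above the highest callosal value by a wide margin. The log2 fold change was 2.55 ± 0.52 (SE, unadjusted p = 3.05e-05, edgeR adjusted p = 0.548). Cells with a read made up 30.2%, 17.8%, 14.6% and 17.1% in spinal cord and 4.44%, 4.76%, 8.70% and 12.5% in corpus callosum, means of 19.9% ± 7.0 and 7.60% ± 3.8 (SD, n = 4, exact permutation p = 0.0286). Unlike the spinal cord sums of Mbp, those of Cyp27a1 were spread over several cells, the highest holding 17.9% to 29.7% of a replicate's reads. In corpus callosum only 5 to 7 cells of a replicate had a read, and the highest held 41.0% to 82.7% of the reads. With the highest cell of each gene left out, the log2 fold change of Cyp27a1 was 3.15. That step removed a larger part of the callosal sums than of the cord sums, so the larger value is no added support.

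Genes of cholesterol synthesis mostly had positive log2 fold changes, none of them past the test. Of 20 members of the list, 19 were tested, 17 had a positive and 2 a negative log2 fold change, and the median was 0.78, where the median of all 22907 genes was -0.04 and 48.1% were positive. None of the 19 had an unadjusted p under 0.05 (2.85% of all genes did in the higher direction), and 1 did not overlap between the regions (1.26% of all genes). That member was Dhcr7, a reductase of the last step of the pathway, at 122, 91.0, 48.7 and 84.7 CPM in spinal cord and 24.5, 40.1, 17.5 and 36.6 CPM in corpus callosum (log2 fold change 1.54 ± 0.85 SE, unadjusted p = 0.0782). Summed over the list, spinal cord replicates held 676, 595, 643 and 630 CPM and callosal replicates 508, 410, 427 and 327 CPM. Every spinal cord sum exceeded every callosal sum, at 636 ± 33.3 against 418 ± 74.3 CPM (SD, n = 4). Dhcr7 was also the second most abundant member by mean CPM. The others among the 4 most abundant overlapped between the regions: the isomerase gene Ebp was at 125 ± 25.5 and 120.3 ± 40.1 CPM, the oxidase gene Msmo1 at 60.2 ± 12.6 and 46.0 ± 18.3, and the synthase gene Hmgcs1 at 33.5 ± 25.8 and 51.6 ± 58.8. The median was 0.06 over the members read in at least 20% of cells, 1.41 without corpus callosum replicate 2 and 1.98 with the highest cell of each gene left out, an alternative added after seeing the data. Earlier results of these data already showed this list as higher in spinal cord, so its count is no independent support.

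Most genes of the list with a promoter entry share a short motif. The windows below run from 250 bases before to 50 bases after the start in the RefSeq table on GRCm38.p6. They belong to the 3 synthesis genes with an entry and the largest differences in mean CPM. Only windows with a CCAAT box, the binding motif of the factor NF-Y, were printed, so its presence in them is a selection and no result. Dhcr7 has 3 windows, of which the first with a box is shown, and Cyp51 and Sc5d have 1 each. Sequences are printed 5′ to 3′ on the gene's strand, with each box in capitals on either strand.
Dhcr7 chr7:143829964-143830263 (plus strand): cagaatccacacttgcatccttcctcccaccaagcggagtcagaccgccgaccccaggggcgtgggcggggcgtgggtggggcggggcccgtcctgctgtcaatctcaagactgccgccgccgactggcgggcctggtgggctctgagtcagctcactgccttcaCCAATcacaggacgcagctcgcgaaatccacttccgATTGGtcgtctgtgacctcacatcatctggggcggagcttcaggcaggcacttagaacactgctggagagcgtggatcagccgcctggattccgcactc
Cyp51 chr5:4104648-4104947 (minus strand): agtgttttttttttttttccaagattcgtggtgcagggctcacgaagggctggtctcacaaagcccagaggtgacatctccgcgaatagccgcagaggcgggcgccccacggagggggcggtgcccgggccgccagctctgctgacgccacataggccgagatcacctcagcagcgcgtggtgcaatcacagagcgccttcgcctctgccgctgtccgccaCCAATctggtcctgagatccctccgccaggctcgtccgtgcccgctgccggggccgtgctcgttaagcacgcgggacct
Sc5d chr9:42264251-42264550 (minus strand): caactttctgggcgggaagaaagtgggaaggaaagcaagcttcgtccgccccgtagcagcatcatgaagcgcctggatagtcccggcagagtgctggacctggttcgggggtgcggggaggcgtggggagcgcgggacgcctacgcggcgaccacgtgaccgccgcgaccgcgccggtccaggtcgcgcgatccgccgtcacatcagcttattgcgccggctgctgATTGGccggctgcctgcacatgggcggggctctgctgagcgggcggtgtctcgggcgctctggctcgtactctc
Mean levels of Cyp51, the lanosterol demethylase gene, were 46.8 ± 27.5 CPM in the cord and 11.6 ± 14.7 in corpus callosum, and the replicates overlapped. Those of Sc5d, a desaturase gene, were 47.6 ± 19.2 and 23.9 ± 11.3 CPM (SD, n = 4), also overlapping. A CCAAT on either strand was found in a window of 14 of the 15 synthesis genes with an entry, and in 41.1% of the 27025 genes of the table. The core CACCCCAC of the sterol regulatory element of SREBP factors was found in 2 of the 15, Acat2 and Hmgcs1, and in 3.30% of all genes. The search covered both strands, and a match is a run of letters, not a measured binding site.

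Among 8 genes of sterol control, 6 were positive and 2 negative, with a median log2 fold change of 0.87 that ran from 0.11 to 1.34 over the alternatives. Insig2, which holds SREBP factors in the endoplasmic reticulum, was the 1 member at an unadjusted p under 0.05 (2.85% of all genes in the higher direction) and the 1 that did not overlap (1.26%), at 88.1, 72.1, 51.9 and 93.0 CPM against 48.6, 28.7, 35.4 and 40.1 CPM (log2 fold change 1.00 ± 0.47 SE, unadjusted p = 0.0411, edgeR adjusted p = 0.744). It was named after its values were seen. Mylip, a ubiquitin ligase gene, was the most abundant member, at 207 ± 65.2 and 294 ± 81.5 CPM (log2 fold change -0.51, unadjusted p = 0.0999). Srebf2, which encodes SREBP2, was at 88.3 ± 21 and 53.1 ± 39.5 CPM. So synthesis and sterol control genes had mostly positive values where the exporters had negative ones, with none called. Npc1, which moves cholesterol out of lysosomes, was at 346 ± 31.2 and 251 ± 23.8 CPM without overlap (unadjusted p = 0.0988) and was named after its values were seen. In the wider list of lipid uptake and efflux, 9 of 19 tested members were positive and 10 negative (median -0.04, and -0.05 without the 2 cells that stood apart), among them Trem2, a lipid-sensing receptor gene, at 1190.2 ± 252 and 1388 ± 301 CPM.

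**Figure D3:**
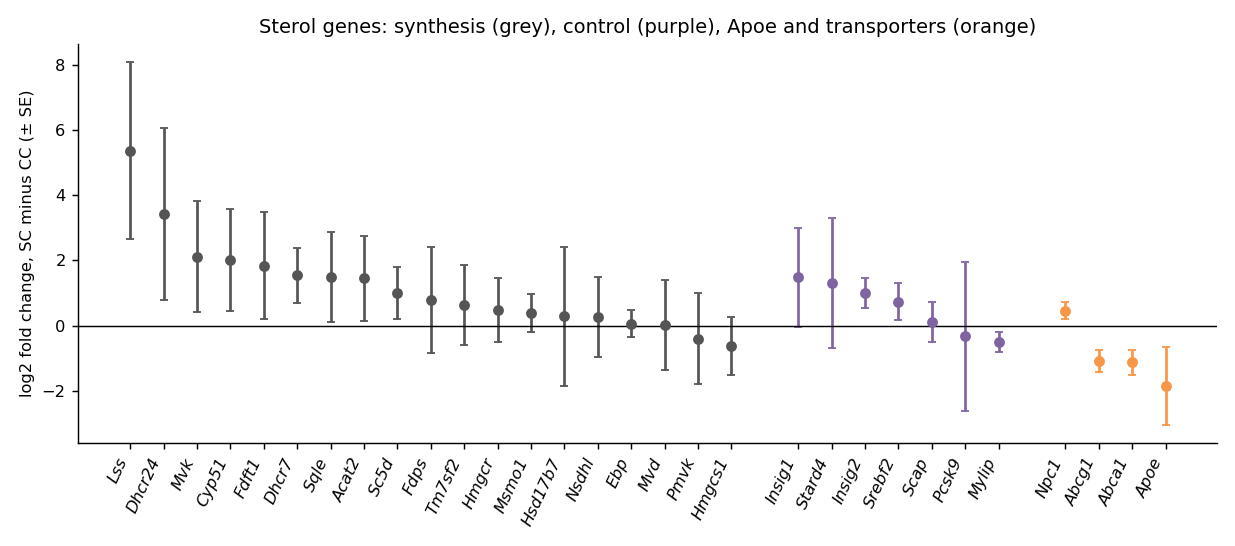
Log2 fold change between spinal cord (SC) and corpus callosum (CC), with SE from edgeR, for genes of cholesterol synthesis (grey), sterol control (purple) and 4 genes of lipid transport (orange). Grey points lie mostly above 0 with wide errors, while Abcg1, Abca1 and Apoe lie below 0.

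The other genes of smallest p in the higher direction began with Rsrp1 and Srsf5. By the naming rule, 12 genes were taken in each direction from the 146 higher and 129 lower genes with a mean of at least 20 CPM over the 8 sums, a read in at least 10% of cells of the higher region before thinning and no overlap, so their lack of overlap is a selection and no result. Rsrp1, which encodes an arginine- and serine-rich protein, was at 1941 ± 309 CPM in the cord and 1137 ± 138 in corpus callosum (SD, n = 4; log2 fold change 0.77 ± 0.16 SE, edgeR adjusted p = 0.548). Srsf5, a splicing factor gene, was at 547 ± 83.3 and 308 ± 67.3 CPM (log2 fold change 0.83). Both were read in most cells of both regions, Rsrp1 in 95.3% and 93.2% and Srsf5 in 80.6% and 73.2%. Akna, an AT-hook factor gene, was at 307 ± 84.2 and 146 ± 21 CPM, and Bcl10, an adaptor of NF-kB signalling, at 89.4 ± 23.5 and 28.8 ± 12.2 CPM. The lysophosphatidic acid receptor gene Lpar6 was at 472 ± 33.7 and 282 ± 104 CPM, and Hps4, which serves lysosome-related organelles, at 234 ± 53.4 and 126 ± 30.4 CPM. Abca3, a phospholipid transporter gene, was at 112 ± 37.1 and 37.7 ± 17.2 CPM. The ubiquitin ligase gene Trim36 (89.2 ± 58.9 and 14.7 ± 9.73 CPM) and the SNARE gene Bet1 (67.5 ± 39.9 and 11.2 ± 6.27 CPM) completed this side with Ccl12, a monocyte-attracting chemokine gene. Ccl12 stood at 33.9, 78.3, 83.0 and 39.1 CPM in spinal cord and 5.23, 3.14, 6.92 and 9.07 CPM in corpus callosum, from 24 cells and 11 cells with a read. In the cord the highest cell held 39.0% to 96.0% of a replicate's Ccl12 reads, 56.5% to 84.5% for Bet1 and 45.1% to 70.8% for Trim36.

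In the lower direction the genes were of mixed function. Trmt44, a tRNA methyltransferase gene, was at 3.72 ± 2.92 CPM in the cord and 59.0 ± 51.5 in corpus callosum (log2 fold change -3.98 ± 0.90 SE, edgeR adjusted p = 0.735), and was read in 2.36% and 9.78% of cells. Natd1, an acetyltransferase-domain gene, was at 6.98 ± 6.09 and 90.5 ± 34.3 CPM, and Iqsec1, an exchange factor for ARF GTPases, at 5.19 ± 1.51 and 45.0 ± 26.0 CPM. These 3 were rare in the cord. In corpus callosum the highest cell held 43.7% to 90.8% of a replicate's Trmt44 reads, 39.6% to 60.1% for Natd1 and 38.9% to 91.6% for Iqsec1. More widely read were Bub3, a spindle checkpoint gene, at 105 ± 19.7 and 225 ± 42.3 CPM (read in 18.8% and 33.6% of cells), and Lrpap1, a chaperone of lipoprotein receptors, at 136 ± 33.5 and 255 ± 24.3 CPM. Cryl1, a crystallin-related enzyme gene, was at 104 ± 21.2 and 233 ± 33.2 CPM, and Gde1, a phosphodiesterase gene of lipid metabolism, at 90.4 ± 29.1 and 204 ± 55.4 CPM. Abcg2, a transporter of drugs and toxins, was at 44.6 ± 9.68 and 107 ± 21.6 CPM, and Eftud2, a spliceosome GTPase gene, at 29.3 ± 17.9 and 98.9 ± 56.3 CPM. Tppp and Sirt2, both known for high expression in oligodendrocytes, were lower rather than higher in the cord: Tppp was at 29.4 ± 15.6 and 93.0 ± 35.8 CPM, and the deacetylase gene Sirt2 at 54.6 ± 21.7 and 152 ± 53.1 CPM. All 24 genes had an edgeR adjusted p of 0.548 or 0.735.

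**Figure D4:**
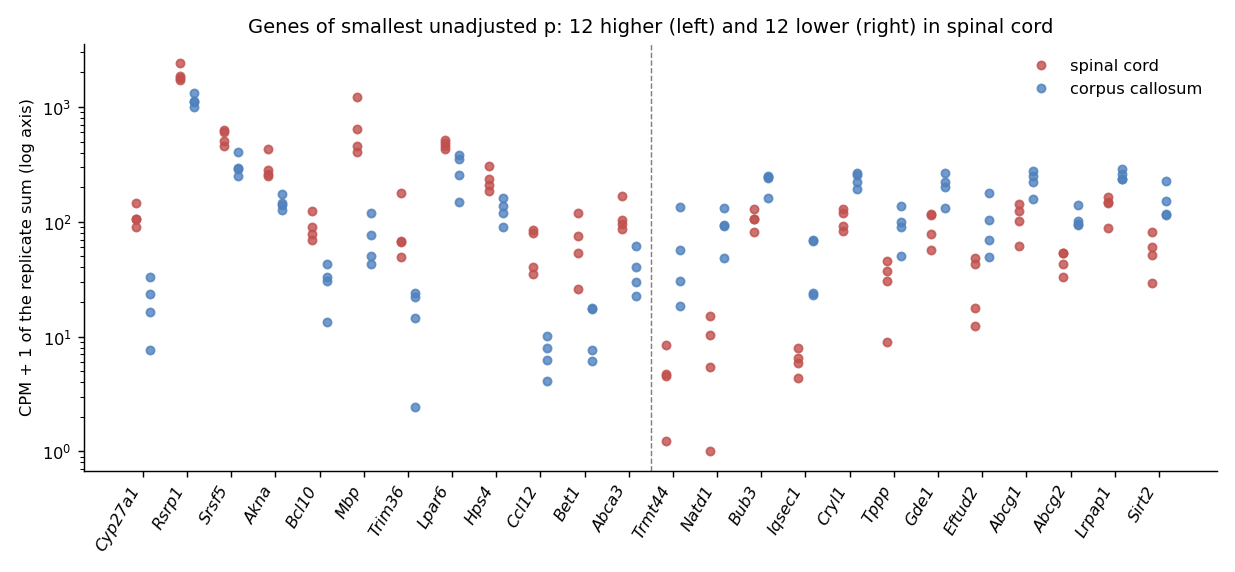
CPM + 1 of the replicate sums on a log axis for the 24 genes of smallest unadjusted p under the naming rule. Points are 4 spinal cord (red) and 4 corpus callosum (blue) replicates, with 12 higher genes left and 12 lower genes right of the dashed line; the colours do not mix because genes were chosen that way.

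Levels in the other untreated regions, which lay on other plates, place these differences without a test. Mbp was at 679 ± 375 CPM in the cord and 71.2 ± 34.8 in corpus callosum, ahead of hippocampus (49.5 ± 32.6), facial nucleus (35.0 ± 40), cortex (16.7 ± 13.2) and cerebellum (15.5 ± 19.6). The spinal cord stood above all others in every replicate, while the 5 lower regions overlapped one another in part. For Cyp27a1 the corpus callosum had the lowest mean instead, at 19.1 ± 10.7 CPM, against means of 48.7 ± 13.3 in hippocampus, 75.9 ± 28.2 in cortex, 86.8 ± 31.0 in facial nucleus and 98.9 ± 62.5 in cerebellum. Its highest replicate overlapped hippocampus and cerebellum and lay below cortex and facial nucleus. Rsrp1 was at 993 to 1323 CPM in corpus callosum, below every replicate of the other 5 regions, whose means ran from 1573 to 2346 CPM. Apoe means ran from 154 CPM in facial nucleus to 1063 in hippocampus, and Abcg1 from 106 in spinal cord and 107 in facial nucleus to 428 in cortex.

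Microglia identity genes were close between the regions. Of 20 markers, 17 had a negative and 3 a positive log2 fold change, with a median of -0.18, and no gene of the list separated the replicates. Cst3, which encodes cystatin C, was at 42588 ± 8636 CPM in the cord and 46027 ± 7055 in corpus callosum, Ctss at 14208 ± 2839 and 13347 ± 1469, and Csf1r, the receptor gene for survival signals, at 7189 ± 1275 and 7153 ± 1348. At an unadjusted p under 0.05 in the lower direction, where 3.72% of all genes were, the list had 2 members: P2ry12 at 6182 ± 1243 and 7416 ± 691 CPM (unadjusted p = 0.0254, edgeR adjusted p = 0.735) and Siglech at 2009.7 ± 429.6 and 2568 ± 585 CPM (unadjusted p = 0.0493). Of 27 disease-associated genes 11 were positive and 16 negative (median -0.05, and -0.13 without the 2 cells), with the protease gene Ctsd at 6505 ± 1291 and 8687 ± 2032 CPM. Complement genes had a median of -0.05 over 14, with C1qa at 4167 ± 568 and 4349.5 ± 291 CPM. Lysosome genes had a median of 0.07 over 24, led by Lgmn. Glycolysis genes (0.05 over 17), immune checkpoint genes (0.13 over 8) and immediate early genes (0.15 over 21) were near the value of all genes, while nuclear genes of oxidative phosphorylation had a median of -0.31 over 39 (10 positive, 29 negative) and cell cycle genes -0.51 over 22 (6 positive, 16 negative). The 9 mitochondrially encoded RNAs tested were all negative (median -0.25), beside the lower median mitochondrial share of spinal cord cells given above, whose part in this was not tested.

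Inflammatory lists rested partly on single cells. Of 14 cytokine and chemokine genes, 11 were positive and 3 negative with a median of 1.18, and 5 were at an unadjusted p under 0.05 in the higher direction, where 2.85% of all genes were. The list summed to 4379 CPM in spinal cord replicate 1, and to 732, 765 and 707 in the others, against 424 to 721 in corpus callosum. Without the 2 cells that stood apart the median was 0.46, and with the highest cell of each gene left out it was 0.05. Ccl3 was at 1274, 3.22, 0.101 and 0.0796 CPM in the 4 spinal cord sums and at most 0.292 CPM in corpus callosum, so that 1 replicate held nearly all of it. Il1a, a cytokine gene read in many cells, was at 337 ± 125 and 173 ± 60.4 CPM with overlapping replicates (unadjusted p = 0.00698, edgeR adjusted p = 0.735), and was named after its values were seen. Interferon-response genes were 19 positive and 8 negative of 27 (median 0.71, from 0.26 to 1.12 over the alternatives), with 1 at an unadjusted p under 0.05 in each direction (2.85% of all genes higher and 3.72% lower), and summed to 406 to 729 CPM in the cord and 272 to 458 in corpus callosum. The ranges overlap. The lower one was Ifit2, an interferon-induced gene at 0 counts in all 4 spinal cord sums and at 0.856, 0, 5.94 and 0 CPM in corpus callosum (edgeR adjusted p = 0.735), which DESeq2 called (adjusted p = 9.6e-05). Their most abundant member, Trim30a, was at 120.5 ± 34.5 and 65.3 ± 39.5 CPM. Genes of MHC class I (median 0.34 over 11) and class II (0.57 over 7) had no member at an unadjusted p under 0.05, with B2m at 2172 and 2048 CPM.

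Marker lists of other cell types each came to at most 2030 CPM in any sum, against 103166 CPM or more for the microglia list. Their part in the results above was not tested. Oligodendrocyte markers summed to 810 to 2030 CPM in the cord and 344 to 811 in corpus callosum, so that the lowest cord sum lay just under the highest callosal one, with 13 of 18 tested members positive and a median of 0.52. That median was -0.42 without spinal cord replicate 1 and 0.21 without its 2 cells. Mobp followed Mbp at 217, 288, 10.7 and 34.2 CPM against 27.6, 7.85, 7.41 and 0.112 CPM. Astrocyte markers summed to 1680 CPM in spinal cord replicate 1 and 526 to 861 in the others, against 597 to 941 in corpus callosum. Their median of 2.10 over 14 was -0.14 without that replicate and 0.64 without its 2 cells. Neuron markers had a median of -0.74 over 14, endothelial markers 0.98 over 7, mural markers 0.10 over 6, oligodendrocyte precursor markers 0.04 over 8 and lymphocyte markers 0.22 over 9. The lymphocyte list summed to 579 to 937 CPM in the cord and 432 to 996 in corpus callosum. Among precursor markers DESeq2 called Neu4, a sialidase gene at 0, 0.107, 0.607 and 0 CPM in the cord and 38.5, 14.6, 25.5 and 14.4 CPM in corpus callosum (adjusted p = 0.0214, edgeR adjusted p = 0.735), named after its values were seen. Border macrophage markers summed to at most 16.8 CPM in any sum (median -1.82 over 5), monocyte markers to at most 86.0 (-0.80 over 5), and neutrophil and red cell markers to at most 22.8 and 8.80. Hox genes, which mark spinal cord tissue by position along the body, summed to at most 17.5 CPM and overlapped between the regions.

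**Figure D5:**
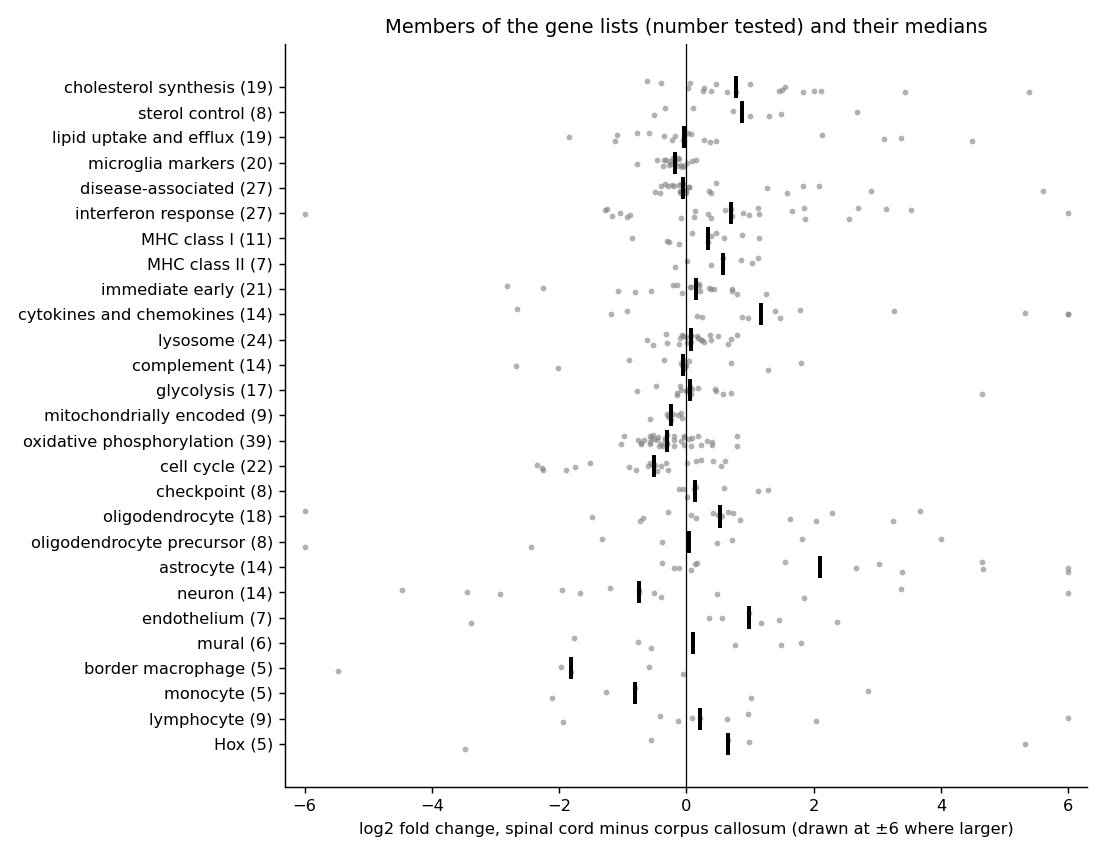
Log2 fold change of each tested member (grey points, drawn at the edge of the axis where larger than 6 in size) and the list median (black bar) for gene lists with at least 5 tested members, the number tested in brackets. Microglia markers cluster tightly just below 0, cholesterol synthesis and sterol control lie mostly above it, and astrocyte and cytokine lists spread widely to the right.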

How the data were processed

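Single microglia were sequenced by Smart-seq2 in 384-well plates. The deposited values are raw counts per gene and well, made by the authors with STAR 2.5.2b and featureCounts 1.5.1 and mapped to GRCm38, as listed in the submitters' processing notes, while no source used here names the annotation release or strandedness. Of 48709 gene identifiers, 48349 matched GENCODE symbols and 360 did not; 92 spike-in entries were kept out of library sizes and tests. Kept wells were summed per region and replicate to 7916457 to 13575707 counts. The 24 sums of the 6 untreated regions, which share one estimate of the spread, were fitted with edgeR 4.0.16 (R 4.3.3; TMM scaling, filterByExpr with a count minimum of 10 and a total minimum of 15, robust quasi-likelihood test, Benjamini-Hochberg adjustment at 0.05) and contrasted between spinal cord and corpus callosum. Shares of cells and quality measures were tested by two-sided exact permutation over the 4 and 4 replicates, using Python 3.11.15, numpy 2.4.6 and pandas 2.3.3. The edgeR step was tested on simulated data. There it called 1 of 50 genes given a 2-fold difference and 12 of 50 given a 4-fold one. At 8-fold it called 28 of 50 and at 16-fold 38 of 50. It also called 2 genes given no difference. DESeq2 1.42.0, other scalings, filters and sample sets, a replicate block and leaving out each replicate were alternatives.

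The genes named are Mbp, Apoe and the 12 genes in each direction of smallest p under the rule given in the text. They also include the 4 most abundant members of a list. Other named genes fall outside these rules, and some are marked in the text as chosen after their values were seen. Siglech and Ifit2 were also named after their values were seen, without such a mark. The members and lists were chosen with earlier results of these data known. Same-numbered replicates of the 2 regions were not taken as pairs, since the labels do not tie the numbers to mice. PCR copies cannot be told from molecules in these counts, and doublets were not called. A few genes of the lists are not reported here by name.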

Additional observations from a re-analysis of the deposited data

Results flagged for a closer look

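In 8 of 124 groups of 4 replicates, the highest or lowest replicate stood apart from the other 3 by Dixon's criterion (the gap to the nearest replicate as a share of the group's range), where chance alone flags about 1 group in 20. Trim36 in spinal cord reached 176.686 CPM in 1 replicate, against 48.0 to 66.4 in the others. Bub3 in corpus callosum was at 161.505 CPM in its lowest replicate, against 242 to 249.8. Abcg2 in corpus callosum was at 138.863 CPM in its highest replicate, against 93.3 to 101. The summed CPM of lipid uptake and efflux genes in corpus callosum was 6985.35 in replicate 3, the replicate of highest Apoe, against 3951 to 4286. Cytokine and chemokine genes summed to 4378.65 CPM in spinal cord replicate 1, which holds the cell with nearly all Ccl3 reads, against 707 to 765. Neuron markers summed to 354.352 CPM in the highest corpus callosum replicate, against 55.5 to 76.8. The list of sex-linked genes, read as Xist, summed to 659.722 CPM in the lowest corpus callosum replicate, against 807 to 821. Hox genes summed to 16.1761 CPM in the highest corpus callosum replicate, against 3.22 to 4.95.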

How the results depend on the processing

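edgeR called 0 genes under all of its alternatives, leave-one-out fits included (0 to 0), and DESeq2 called 314, the exception. The replicate block gave 0 calls and 1235 genes at an unadjusted p under 0.05. With only the 8 sums of the 2 regions, added after seeing the data, it gave 0 calls and 473 such genes. Deviations of same-numbered replicates correlated at 0.02, 0.03, 0.05 and 0.03, each the highest for its number, which is a hint from the data and not from the design. Without the 2 spinal cord cells that stood apart there were 0 calls and 1523 genes at an unadjusted p under 0.05, and with the highest cell of each gene left out 0 calls of 13605 genes and 698. Of values for single genes, 700 kept their direction and side of the threshold and 17 passed it, all under DESeq2. Those 17 were of genes chosen for a small p on the same sums. List medians stayed within the spread between replicates in 597 cases and moved beyond it in 48. The difference in percent of wells kept was -1.54 percentage points, from -2.97 to 0.0679 with each replicate left out in turn, the latter without corpus callosum replicate 3; the cause was not tested. The number of replicates and the few cells that hold many of a gene's reads limit the precision, so a gene that was not called is not shown to be equal.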
